A study of Mus musculus with 4 samples.

Results

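Axin2, Nkd1, Notum, Rnf43, Znrf3, Lgr5, Tnfrsf19, Tcf7, Sp5 and Cdx1 are 10 genes known as transcriptional targets of Wnt signalling, and they were taken by symbol from a table of 45706 genes. All 10 were in the table, and 9 passed the filter on low counts. The RNA came from V6.5, an established line of mouse embryonic stem cells. The 24 h group was labelled KLF KO and was collected after 24 h of doxycycline, which induces Cas9 with a GFP reporter from the lentiviral vector c3GIC9. The 0 h group was labelled KLF WT and received no doxycycline. The labels describe clonal, puromycin-selected lines whose guides cut either KLF4 only or a tandem of KLF2, KLF4 and KLF5, without saying which of these a library carried, while the titles read TKO in every library and KLF4 KO at 24 h. All cells grew on irradiated feeder cells in 15% serum with 1000 U/ml LIF and, per the culture label, in 2i, a pair of inhibitors of MEK (1 µM) and of GSK3 (3 µM). Each group held 2 biological replicates, A and B.

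In Wnt signalling, secreted ligands bind Frizzled and LRP receptors and stop the destruction complex, in which GSK3 marks β-catenin for degradation. Stabilised β-catenin then joins the TCF and LEF factors on DNA, relieves repression by TCF7L1 and activates target genes. Many of these targets encode inhibitors of the same pathway. A GSK3 inhibitor bypasses the ligands and the receptors, and it is used in this culture to hold mouse embryonic stem cells in the naive state. Because both groups received it, the comparison asks how the targets stood at 24 h in the presence of the drug, and it has no arm without the inhibitor. Per the labels, the groups differ at once in doxycycline, in the induction of Cas9, in KLF genotype and in time, and these cannot be told apart. KLF protein was not measured in the data used here.

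Promoter sequence is shown for 3 of the genes, so that the letters searched for TCF and KLF motifs can be seen beside the measurements: Axin2, the most general target, Sp5, whose window held the TCF motif, and Tnfrsf19, the member that was higher at 24 h. Each line gives the 250 bases upstream of a RefSeq transcript start on GRCm38.p6, 5′ to 3′ on the gene's strand. Capitals mark CTTTGA, the core of the TCF/LEF motif, and GGGNGTGG, a form of the KLF motif, on either strand.
Axin2, chr11:108920099-108920348, plus strand: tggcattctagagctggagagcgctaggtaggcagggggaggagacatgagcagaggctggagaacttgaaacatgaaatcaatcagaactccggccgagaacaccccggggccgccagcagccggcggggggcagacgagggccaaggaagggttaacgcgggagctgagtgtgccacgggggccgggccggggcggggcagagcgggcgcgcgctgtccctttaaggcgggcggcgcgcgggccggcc
Sp5, chr2:70474673-70474922, plus strand: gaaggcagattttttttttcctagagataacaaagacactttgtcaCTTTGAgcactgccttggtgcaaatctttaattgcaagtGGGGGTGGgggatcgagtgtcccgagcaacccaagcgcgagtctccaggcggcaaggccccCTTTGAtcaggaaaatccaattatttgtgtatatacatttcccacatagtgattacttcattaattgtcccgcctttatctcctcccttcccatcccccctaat
Tnfrsf19, chr14:61046856-61047105, minus strand: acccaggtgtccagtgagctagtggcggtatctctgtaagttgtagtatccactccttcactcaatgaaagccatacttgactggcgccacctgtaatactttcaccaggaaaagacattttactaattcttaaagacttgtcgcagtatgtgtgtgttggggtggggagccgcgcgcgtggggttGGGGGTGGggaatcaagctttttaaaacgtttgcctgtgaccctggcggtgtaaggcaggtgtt
RefSeq windows of 300 bases (250 upstream and 50 downstream of the start) matched 6 of the 10 members, in 9 windows, and no window was matched for Notum, Znrf3, Lgr5 or Cdx1. The TCF/LEF core stood in 2 of the 9 windows, that of Sp5 (2 matches) and the second window of Tnfrsf19, against 16% of all 32851 windows. The KLF form stood in 5 of the 9, those of Sp5, Nkd1, the second of Tcf7 and both of Tnfrsf19, against 17.6% of all windows. Matches that overlap were all counted. The Axin2 and Rnf43 windows held neither motif, which says only that these letters are not in these windows.

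The libraries held 48599693 and 46031578 counts at 24 h, and 52412844 and 48838606 at 0 h. The guide targets Klf2, Klf4 and Klf5 were detected in every library, at 147.3 to 244.4 CPM at 24 h and 123.5 to 430.9 CPM at 0 h (CPM, which put the counts on a shared library size with TMM factors). Their adjusted p-values at 24 h lay between 0.0567 (Klf5, lower) and 0.58 (Klf2) in edgeR's test. Cas9 indels can leave the amount of a transcript as it was, and whether the genes were cut was not tested here. Of the 8 stem cell markers, Pou5f1, Sox2, Nanog and Esrrb each stood at 496.3 CPM or more in every library. The 8 summed to 4242 and 4301 CPM at 24 h, against 4732 and 4693 CPM at 0 h, and 0 rose and 2 fell, Pou5f1 (log2 fold change -0.54, adjusted p = 0.0440) and Zfp42 (-0.45, adjusted p = 0.0442 in edgeR). The 0 h replicate A stood apart, and its deviation from the libraries' mean rose with the GC content of the gene. The correlation r was 0.477 over 17927 genes, none of them an independent replicate. It was -0.192 in 0 h replicate B, -0.162 in 24 h replicate A and -0.223 in 24 h replicate B. Deviations from the mean of the same 4 libraries offset each other, so these negative values partly follow from the positive one. Each of the 9 tested members was higher in 0 h replicate A than in 0 h replicate B, as were 54.1% of all tested genes.

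Of the 9 tested members, 1 rose at 24 h (Tnfrsf19), 2 fell (Notum and Cdx1) and 6 did not pass. The test was edgeR's quasi-likelihood test over 18005 genes with Benjamini-Hochberg adjustment, at a threshold of 0.05. In the same test 6.8% of all genes were called, 4.15% higher and 2.65% lower. The members were chosen with earlier results known, and the count is a description. The members' median log2 fold change was -0.29, against -0.0067 over all tested genes. By sign, 3 of the 9 log2 fold changes were positive and 6 negative. After TMM scaling, the values of both groups did not overlap in 7 of the 9 members, 1 higher and 6 lower at 24 h. Over all tested genes 58.8% did not overlap, 29.3% higher and 29.5% lower. The gap was narrow for Nkd1 (3.547 CPM in 24 h replicate B against 3.580 in 0 h replicate B) and for Tcf7 (118.39 against 119.3). Overlap under other scaling was not tested.

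**Figure D1:**
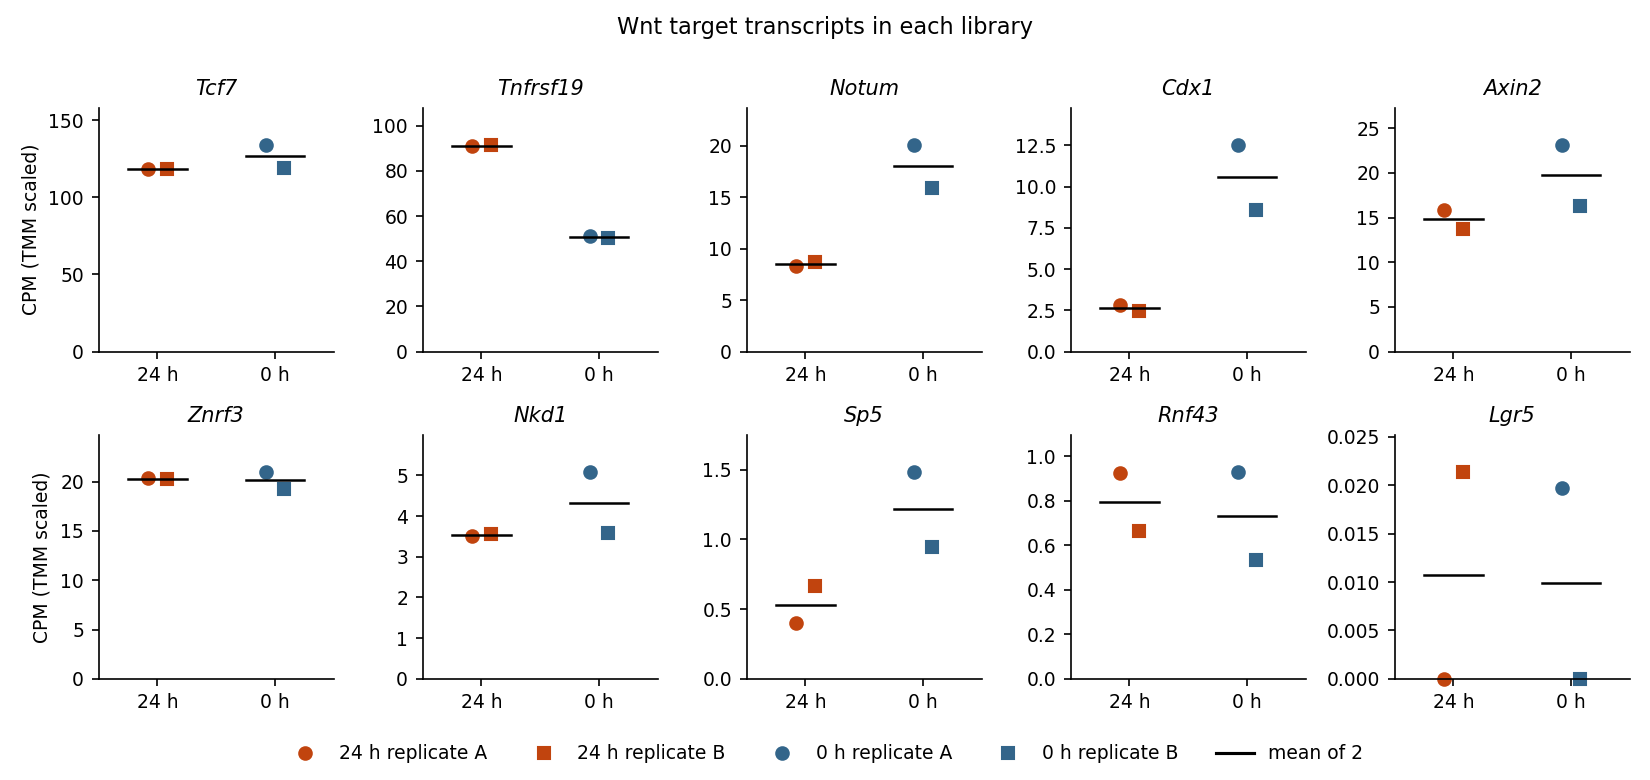
CPM after TMM scaling (y axis, a scale of its own in each panel) of the 10 Wnt target genes in the 24 h and 0 h libraries. Circles are replicate A, squares replicate B and lines the mean of 2. Tnfrsf19 is higher at 24 h, Notum and Cdx1 are lower in both 24 h libraries, and Lgr5 never exceeds 1 count.

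Axin2 (ENSMUSG00000000142, chromosome 11, 108920349 to 108950783 on GRCm38) is the scaffold of the destruction complex that Wnt signalling itself induces, and the gene most often read as a report of pathway activity. It was at 15.8 and 13.7 CPM in the 24 h libraries, against 23.1 and 16.3 CPM in the 0 h libraries. Both 24 h libraries were lower, but 24 h replicate A lay within 1 CPM of 0 h replicate B. The log2 fold change was -0.42 (SE 0.19, 95% interval -0.87 to 0.03) and did not pass (adjusted p = 0.221 in edgeR). Its size rested on the 0 h libraries, at -0.14 on the log2 scale when 0 h replicate A was left out and at -0.65 when 0 h replicate B was, and the second of these passed (adjusted p = 2.25e-10). It also passed with the letters A and B as a replicate block and a smooth trend on GC content and exon length removed from every library (log2 fold change -0.32, adjusted p = 0.0214), within a range of 2.25e-10 to 0.83 over its 14 alternatives. Fits without a 0 h library assume that the lone 0 h sample varies like the 24 h libraries.

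Nkd1 (ENSMUSG00000031661, chromosome 8, 88521354 to 88594884) binds Dishevelled, which passes the signal on from Frizzled, and acts as a feedback inhibitor. It was at 3.52 and 3.55 CPM in the 24 h libraries, against 5.08 and 3.58 CPM in the 0 h libraries, so that only 0 h replicate A stood clear of the others. The log2 fold change was -0.29 (95% interval -0.81 to 0.23, adjusted p = 0.434 in edgeR), with -0.02 without 0 h replicate A. Leaving out 0 h replicate B gave -0.53, which passed (adjusted p = 0.0108), within a range of 0.0108 to 0.956 over its 14 alternatives.

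Notum (ENSMUSG00000042988, chromosome 11, 120653788 to 120661175) is a secreted enzyme that removes the lipid from Wnt ligands and so switches them off outside the cell. It was at 8.33 and 8.68 CPM in the 24 h libraries, against 20.1 and 15.9 CPM in the 0 h libraries, with no overlap. The means were 8.50 ± 0.243 CPM at 24 h and 18.02 ± 2.94 CPM at 0 h (SD, n = 2 each). The log2 fold change was -1.08 (SE 0.16, 95% interval -1.47 to -0.70, adjusted p = 0.0148 in edgeR), and it was -0.84 with the trend on GC content and length taken out and -0.91 without 0 h replicate A. It passed in all 14 alternatives. Notum shares 29.4% of its exon bases with Notumos and 8.72% with Myadml2os, both on the other strand, and since the strand setting of the counting is not given in the sources used here, its counts are uncertain. Notumos held 293 counts over the 4 libraries and Myadml2os 35.

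Znrf3 (ENSMUSG00000041961, chromosome 11, 5276324 to 5444847) and Rnf43 (ENSMUSG00000034177, chromosome 11, 87662722 to 87735539) are related E3 ubiquitin ligases of the cell membrane that remove Frizzled receptors, and R-spondins block them by way of LGR receptors. Znrf3 was at 20.31 and 20.30 CPM in the 24 h libraries, against 21.0 and 19.3 CPM in the 0 h libraries. The groups overlapped, and the 95% interval of its log2 fold change (0.013) ran from -0.28 to 0.31 (adjusted p = 0.958 in edgeR). Rnf43 had 46 and 31 counts in the 24 h libraries, against 47 and 26 counts in the 0 h libraries. The higher library of each group was replicate A, the groups overlapped, and at this depth the 95% interval of its log2 fold change (0.12) spanned -0.80 to 1.03 (adjusted p = 0.876 in edgeR). The ratio of Rnf43 to Znrf3 counts was 0.0456 and 0.0326 in the 24 h libraries and 0.0443 and 0.0277 in the 0 h libraries. Both signs occurred among the alternatives for both genes, and none of those values passed.

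Lgr5 (ENSMUSG00000020140, chromosome 10, 115450311 to 115587780), an R-spondin receptor that marks stem cells of the intestine, had 0 and 1 counts in the 24 h libraries and 1 and 0 counts in the 0 h libraries. Depending on the library, a count of 0 is compatible with levels below 0.0593 to 0.0641 CPM (3 counts of the scaled total, counting error only), and all 4 values lie below that limit, so no fold change is given. Its relative Lgr4, which also binds R-spondins, was at 31.4 and 28.8 CPM at 24 h and at 30.7 and 34.2 CPM at 0 h. Lgr4 did not pass (log2 fold change -0.11, 95% interval -0.40 to 0.18, adjusted p = 0.613 in edgeR).

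Tnfrsf19 (ENSMUSG00000060548, chromosome 14, 60963875 to 61046490) encodes TROY, a receptor of the TNF receptor family that marks stem cells in some epithelia. It was at 90.8 and 91.5 CPM in the 24 h libraries, against 51.4 and 50.5 CPM in the 0 h libraries. Both 24 h libraries were higher than both 0 h libraries, and the replicates of each group lay within 1 CPM of each other. The group means were 91.2 ± 0.494 CPM at 24 h and 50.9 ± 0.625 CPM at 0 h (SD, n = 2 each), a 1.79-fold difference. The log2 fold change was 0.84 (SE 0.10, 95% interval 0.60 to 1.08, adjusted p = 0.00872 in edgeR). Its size held at 0.81 to 0.90 in all 14 alternatives, but the adjusted p was 0.0581 when 24 h replicate A was left out and 0.0652 when 24 h replicate B was. Its longest transcript had a GC content of 49.6%, and the trend on GC content and length fitted to 0 h replicate A was -0.02 on the log2 scale for this gene.

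Tcf7 (ENSMUSG00000000782, chromosome 11, 52252371 to 52283014) encodes TCF1, a DNA-binding partner of β-catenin that is itself a target. It had 118.26 and 118.39 CPM in the 24 h libraries, against 134.0 and 119.3 CPM in the 0 h libraries. The groups did not overlap, but 0 h replicate B lay within 1 CPM of the 24 h values. The log2 fold change was -0.10 (95% interval -0.35 to 0.15, adjusted p = 0.594 in edgeR). It passed only without 0 h replicate B (-0.18, adjusted p = 0.00102), in a range of 0.00102 to 0.965 over its 14 alternatives.

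Sp5 (ENSMUSG00000075304, chromosome 2, 70474923 to 70477729) encodes a zinc finger repressor of the SP family, which binds GC-rich sites much like those of KLF factors. It had 20 and 31 counts in the 24 h libraries, against 75 and 46 counts in the 0 h libraries, or 0.403 and 0.662 CPM at 24 h against 1.48 and 0.946 CPM at 0 h. The groups did not overlap, but the replicates stood apart in both, with an A to B ratio of 0.608 at 24 h and 1.57 at 0 h. The log2 fold change was -1.19 with a wide 95% interval (-2.11 to -0.27) and did not pass (adjusted p = 0.118 in edgeR). It did pass with the replicate block (adjusted p = 0.019), with no filter on low counts (0.031) and without 0 h replicate B (0.000724), within a range of 0.000724 to 0.499 over its 13 alternatives. At a GC content of 62.0%, its log2 fold change was -0.83 with the GC and length trend removed.

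Cdx1 (ENSMUSG00000024619, chromosome 18, 61018862 to 61036199) encodes a caudal homeobox factor that patterns the embryonic axis and the gut. It was at 2.84 and 2.44 CPM in the 24 h libraries, against 12.5 and 8.60 CPM in the 0 h libraries. Both 24 h libraries lay far below the lower of the 0 h libraries. The means were 2.64 ± 0.284 CPM at 24 h and 10.6 ± 2.78 CPM at 0 h (SD, n = 2 each), and the log2 fold change was -2.001 (SE 0.23, 95% interval -2.54 to -1.46, adjusted p = 0.00797 in edgeR). The transcript is rich in GC (62.1%), and the trend fitted to 0 h replicate A was 0.41 on the log2 scale at its GC content and length. Once that trend was taken out of every library the log2 fold change was -1.64, and without 0 h replicate A it was -1.70. It passed in all 14 alternatives.

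**Figure D2:**
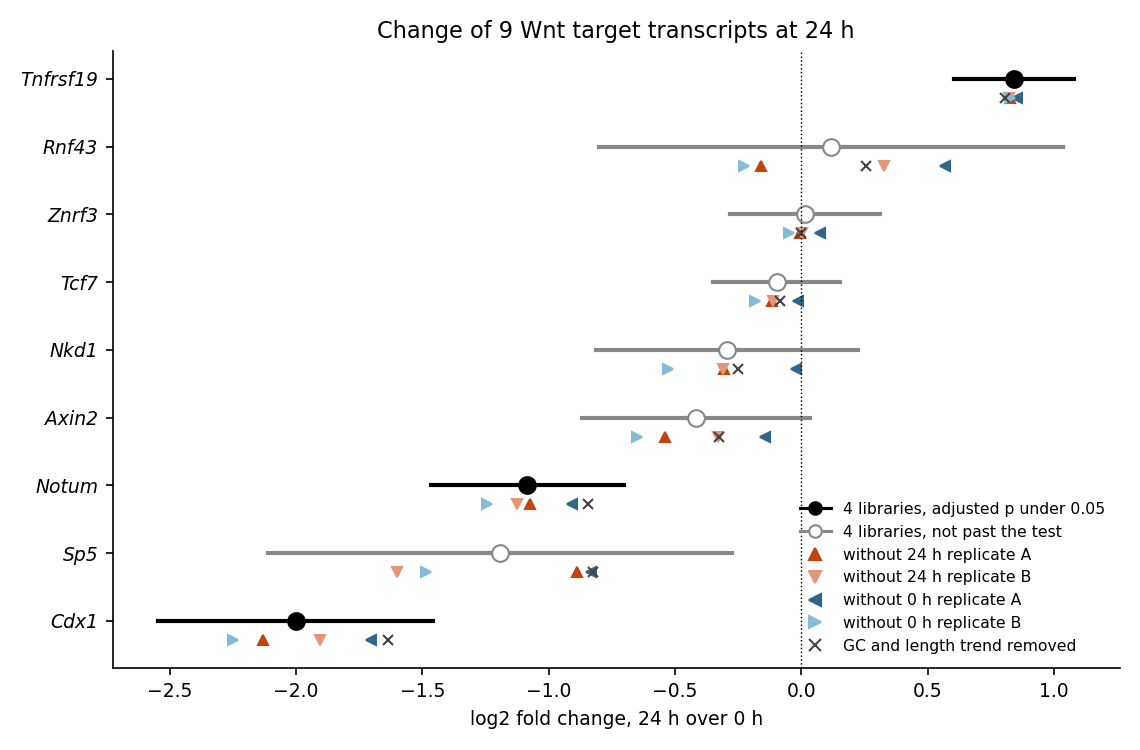
Log2 fold change of 24 h over 0 h (x axis) for the 9 tested members, with 95% intervals as bars. Filled black circles passed the test and open grey ones did not, and the smaller marks are the fits that leave out 1 library or remove the trend on GC content and length. Tnfrsf19 stays at 0.81 or above and Cdx1 at -1.64 or below in every fit shown. Leaving out 0 h replicate A or B gives -1.70 or -2.25 for Cdx1, -0.14 or -0.65 for Axin2 and -0.02 or -0.53 for Nkd1. Sp5 and Rnf43 move with a library of either group.

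The members spanned a wide range of levels per kb of exon, the scale on which genes can be set against each other. At 24 h the order of mean CPM per kb was Tcf7 (45.1), Tnfrsf19 (19.2), Notum (3.53), Axin2 (2.69), Znrf3 (2.57), Cdx1 (1.51), Nkd1 (0.775), Sp5 (0.254), Rnf43 (0.121) and Lgr5 (0.00104). In that order only Axin2 and Znrf3 overlapped with their neighbour. At 0 h it was Tcf7 (48.2), Tnfrsf19 (10.7), Notum (7.49), Cdx1 (6.04), Axin2 (3.59), Znrf3 (2.55), Nkd1 (0.95), Sp5 (0.578), Rnf43 (0.112) and Lgr5 (0.000963), and only Notum and Cdx1 overlapped. Cdx1 therefore stood above Axin2 and Znrf3 at 0 h and below both at 24 h, in every library. The medians of the tested genes were 3.91 CPM per kb at 24 h and 3.88 at 0 h. Tcf7 lay above 92.8% of the tested genes at 24 h and 92.9% at 0 h, Axin2 above 43.3% at 24 h and 48.6% at 0 h, and Sp5 above 12.6% at 24 h and 22.8% at 0 h, while Rnf43 lay above 5.82% at 24 h and 6.69% at 0 h.

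**Figure D3:**
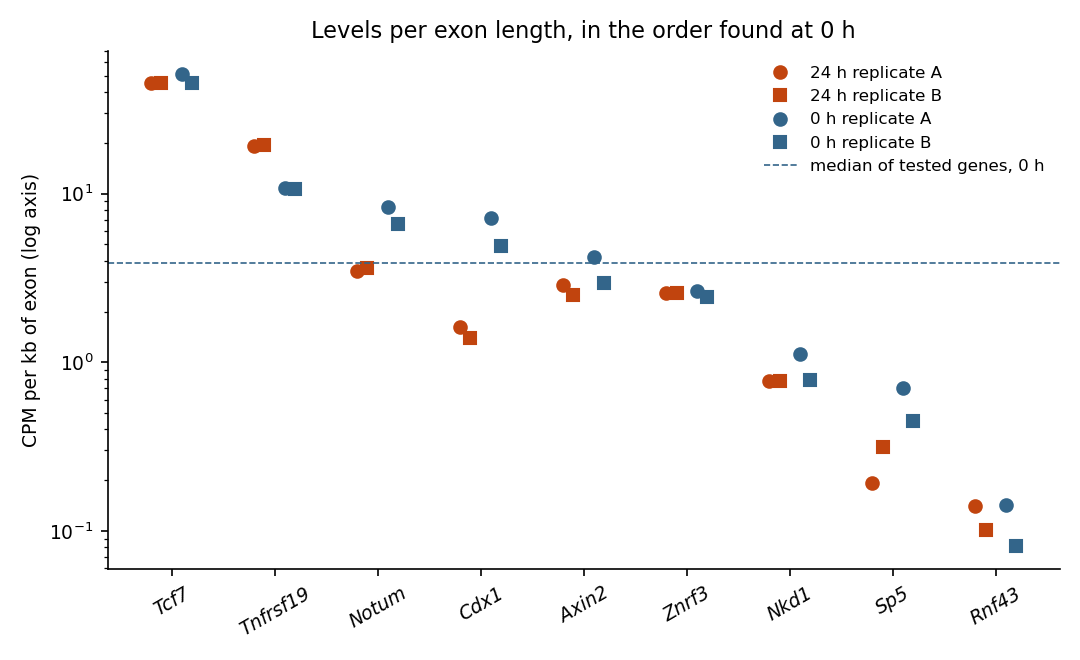
CPM per kb of exon on a log axis for 9 members, ordered by their mean at 0 h, with 24 h libraries to the left of 0 h libraries. The dashed line is the median of the tested genes at 0 h (3.88), and Lgr5 is left out because of its zeros. Only Tcf7 and Tnfrsf19 stand above the line in all 4 libraries.

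Of the 4 TCF and LEF factors, Tcf7l1 and Tcf7 made up most of the transcripts per length. Tcf7l1, the repressor of the family in stem cells, held 58.0% and 56.7% of the summed CPM per kb in the 24 h libraries, against 66.2% and 60.5% in the 0 h libraries. Tcf7 held 39.5% and 40.7% at 24 h, against 32.3% and 37.5% at 0 h. Tcf7l2 held 1.30% to 2.10% and Lef1 0.213% to 0.504%. Accordingly the count ratio of Tcf7 to Tcf7l1 was 0.455 and 0.48 in the 24 h libraries and 0.326 and 0.414 in the 0 h libraries, without overlap. Neither Tcf7l1 (log2 fold change -0.46, adjusted p = 0.139 in edgeR) nor Lef1 (0.80, adjusted p = 0.0876) passed. Tcf7l1 has a GC content of 59.3% and Tcf7 one of 52.3%. The trend on GC content and length fitted to 0 h replicate A was 0.32 on the log2 scale for Tcf7l1 and 0.05 for Tcf7. The part of that trend in this ratio was not tested. The count ratio of Axin2 to its constitutive relative Axin1 overlapped between groups (0.191 and 0.165 at 24 h, 0.207 and 0.176 at 0 h). That of Nkd1 to Nkd2 was 1.55 and 1.48 at 24 h, against 1.68 and 1.60 at 0 h. With 2 libraries per group no exact test of these ratios can reach 0.05, and none was run.

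In the rest of the pathway, 94 of 111 other genes listed by role were tested, and 5 rose, 4 fell and 85 did not pass. That is 9.57% called, beside the 6.8% of all genes, with a median log2 fold change of -0.11. Among 12 tested Wnt ligands 1 rose. This was Wnt3, a ligand of the canonical pathway, at 1.95 and 1.90 CPM in the 24 h libraries, against 0.297 and 0.494 CPM in the 0 h libraries (log2 fold change 2.28 with an SE of 0.33, edgeR adjusted p = 0.0132). Its lower 24 h value was well above its higher 0 h value. The highest ligand by CPM, Wnt7b, was at 8.13 and 7.01 CPM at 24 h and 5.51 and 4.63 CPM at 0 h and did not pass (adjusted p = 0.103 in edgeR). Of the genes for ligand secretion, Porcn and Wls, 0 of 2 passed in edgeR, DESeq2 or limma voom. At an unadjusted p under 0.05 in edgeR 1 was higher, with no share of all genes computed at that threshold.

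Of 17 tested receptor genes, 1 rose, the Frizzled gene Fzd7. It was at 75.1 and 79.2 CPM in the 24 h libraries, against 48.4 and 44.4 CPM in the 0 h libraries (log2 fold change 0.73 with an SE of 0.11, edgeR adjusted p = 0.0146). The coreceptor gene Lrp5 had the highest mean CPM of the list over the 4 libraries, with 101.9 and 91.3 at 24 h and 145.9 and 91.9 at 0 h, although Ryk in 24 h replicate B (98.9) and Fzd5 in 0 h replicate B (110.1) were higher there. Lrp5 did not pass (adjusted p = 0.392 in edgeR). Of 9 tested secreted modulators, 1 rose and 1 fell. Sfrp1, a secreted Frizzled-related protein that binds Wnt ligands, fell to 187.9 and 188.3 CPM in the 24 h libraries, against 344.9 and 341.6 CPM in the 0 h libraries (log2 fold change -0.87 with an SE of 0.09, edgeR adjusted p = 0.00647). Its replicates were closer to each other than 4 CPM in both groups. Dkk3, a member of the Dickkopf family, was at 36.0 and 35.7 CPM at 24 h, against 23.9 and 22.7 CPM at 0 h (log2 fold change 0.62, adjusted p = 0.0277 in edgeR).

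Among 20 tested genes of the destruction complex and its transducers, 1 rose and 19 did not pass. This was Dact1, which binds Dishevelled, at 8.41 and 8.48 CPM at 24 h, against 5.06 and 4.84 CPM at 0 h (log2 fold change 0.77, adjusted p = 0.0331 in edgeR), and 34.9% of its exon bases are shared with a noncoding gene on the other strand that held 0 counts. The targets of the drug, Gsk3a (log2 fold change -0.08, adjusted p = 0.696) and Gsk3b (-0.15, adjusted p = 0.372), were chosen after their values were seen and did not pass in edgeR. Gsk3a shares 28.3% of its exon bases with 9130221H12Rik on the other strand, which held 1714 counts, so its counts are uncertain. The kinase gene Csnk1a1, with the highest CPM of the list, was at 613.4 and 630.7 CPM at 24 h and 504.5 and 586.7 CPM at 0 h (adjusted p = 0.307 in edgeR). Of 18 nuclear factors 0 passed in edgeR. At an unadjusted p under 0.05 in edgeR, 1 was higher and 6 were lower, a threshold at which the share of all genes was not computed. DESeq2 called 1 higher and 1 lower, limma voom called 0, and edgeR after removal of the trend on GC content and length called 7 lower. Of the 18005 genes kept, DESeq2 called 1037 higher and 950 lower, and limma voom 696 higher and 389 lower. The edgeR fit with the trend removed called 2344 of them lower. Ctnnb1, which encodes β-catenin, was at 647.2 and 627.3 CPM in the 24 h libraries, against 760.4 and 685.3 CPM in the 0 h libraries (log2 fold change -0.18, 95% interval -0.41 to 0.05, adjusted p = 0.288 in edgeR).

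**Figure D4:**
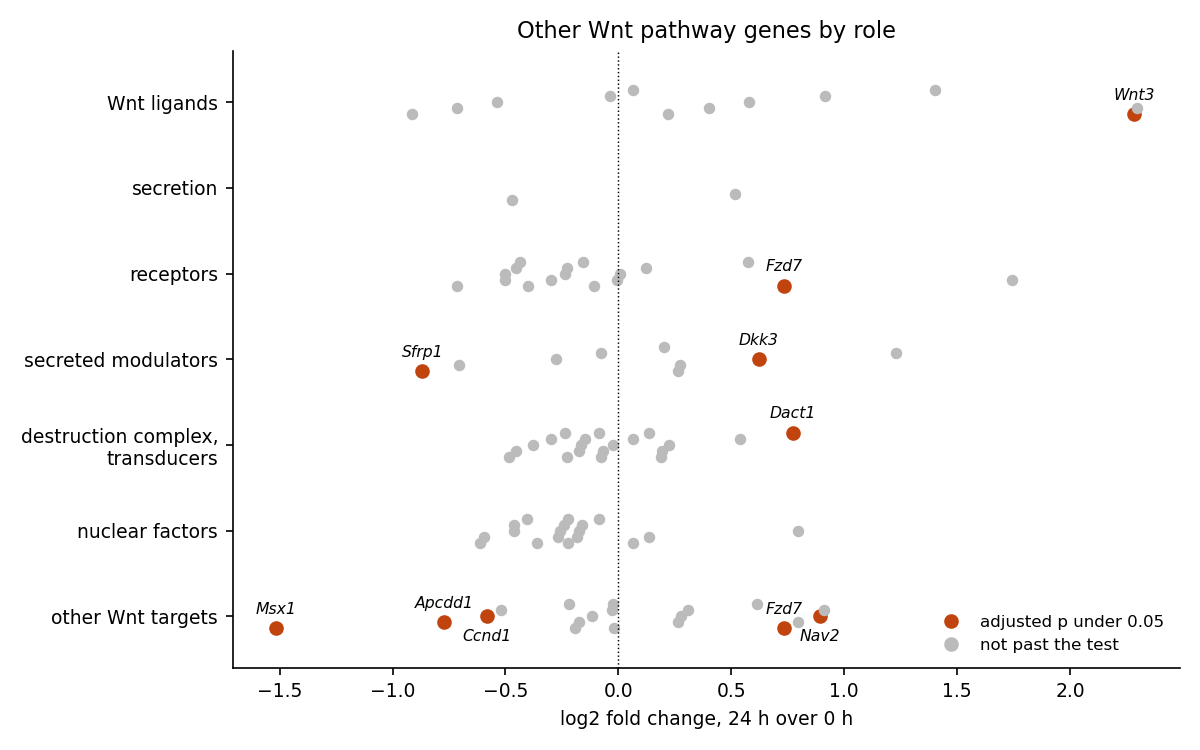
Log2 fold change of 24 h over 0 h (x axis) for the tested Wnt pathway genes outside the 10 members, in rows by role. Red points passed the test and carry their names, and Fzd7 stands in 2 rows. Changes past the test run in both directions, with Wnt3 at 2.28 and Msx1 at -1.52 at the ends.

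Among other genes reported as Wnt targets, calls also ran in both directions. Of 19 tested, 2 rose and 3 fell, where 4.15% of all tested genes were called higher and 2.65% lower. Nav2, which acts on axon outgrowth, was at 77.6 and 75.6 CPM at 24 h, against 46.1 and 36.5 CPM at 0 h (log2 fold change 0.89, adjusted p = 0.0157 in edgeR), and Fzd7 is the second. The homeobox gene Msx1 had 40 and 35 counts in the 24 h libraries, against 113 and 108 counts in the 0 h libraries (log2 fold change -1.52 with an SE of 0.25, edgeR adjusted p = 0.0184). Apcdd1, a membrane inhibitor of Wnt signalling, was at 7.81 and 7.12 CPM at 24 h, against 13.4 and 12.1 CPM at 0 h (log2 fold change -0.77, adjusted p = 0.0304 in edgeR). Ccnd1, the cyclin D1 gene, differed by -0.58 on the log2 scale (adjusted p = 0.0236 in edgeR) and shares 23.4% of its exon bases with a gene on the other strand. Fzd7, Dkk3, Dact1, Apcdd1 and Ccnd1 did not pass when either 24 h library was left out, with adjusted p-values of 0.11 to 0.376, while Wnt3, Sfrp1, Msx1 and Nav2 passed in all 14 alternatives. Tdgf1, the coreceptor of Nodal and the highest of the list by CPM, was at 446.9 and 454.5 CPM at 24 h and 455.1 and 523.6 CPM at 0 h (adjusted p = 0.51 in edgeR). The Wnt targets Cdx2, Cdx4 and Dkk1 were too low to be tested, at 0 to 0.288 CPM, and were picked out after their values were seen, as were Lef1 and Tcf7l2.

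Genes that TCF7L1 is known to repress in stem cells, and that GSK3 inhibition therefore raises, were followed as a further list of 8. The list holds Klf2, itself a target of the tandem guides, and shares Nanog and Esrrb with the stem cell markers. Of the 8, 0 rose, 2 fell and 6 did not pass, with a median log2 fold change of -0.25. At an unadjusted p under 0.05 in edgeR, 5 of the 8 were lower, a threshold at which the share of all genes was not computed. Once the trend on GC content and length was removed, edgeR called 5 of the 8 lower. That fit also called 2344 of all 18005 tested genes lower. Tcl1, a cofactor of AKT kinases, and Nr0b1, a nuclear receptor gene, were the pair that fell, with log2 fold changes of -0.95 (adjusted p = 0.00979) and -0.72 (adjusted p = 0.0157 in edgeR). Tfcp2l1, the factor with the highest CPM of the list, differed by -0.21 on the log2 scale and did not pass (adjusted p = 0.183 in edgeR).

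The cultures hold feeder cells as well as stem cells, and fewer cells of a type and less RNA per cell cannot be told apart in bulk RNA. The 22 feeder fibroblast markers summed to 2898 and 2847 CPM in the 24 h libraries, against 3663 and 2969 CPM in the 0 h libraries. Of 19 tested, 0 rose and 1 fell (Pdgfrb). Most of the sum came from Fn1, at 2051 and 1988 CPM at 24 h against 2611 and 2033 CPM at 0 h, and from Sparc, at 625.5 and 642.0 CPM at 24 h against 784.4 and 737.3 CPM at 0 h. Neither passed (adjusted p = 0.362 and 0.135 in edgeR). Lum was at 0 in 3 of the 4 libraries and Dcn stayed at or under 0.119 CPM, while Col1a1 was at 69.1 and 67.4 CPM at 24 h and 90.1 and 59.6 CPM at 0 h. The 10 mesendoderm markers, of cells in which Wnt targets are also active, summed to 19.7 and 20.5 CPM at 24 h, against 34.3 and 23.7 CPM at 0 h, with Eomes the highest of them. Of 8 tested, 0 passed in edgeR or limma voom, and 1 was lower in DESeq2. At an unadjusted p under 0.05 in edgeR 3 were lower, again with no share of all genes computed. The 10 trophectoderm markers summed to 255.5 and 253.7 CPM at 24 h, against 272.6 and 229.4 CPM at 0 h. Of 9 tested 1 rose (Krt7) and 1 fell (Tead4). Most of the sum came from Tfap2c, at 161.9 and 157.5 CPM at 24 h against 141.1 and 115.5 CPM at 0 h, which did not pass (adjusted p = 0.165 in edgeR). Tead4 came next, at 47.7 and 46.7 CPM at 24 h against 83.2 and 71.3 CPM at 0 h. Cdx2, Elf5 and Hand1 stayed at or under 0.443 CPM in every library, while Gata3 stood at 11.3 CPM or more. Like Cdx1, Notum and Axin2, all these sums were highest in 0 h replicate A. Whether cells of these types were present, and any part of them in the members' values, was not tested.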

How the data were processed

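Libraries were prepared from mRNA with a stranded TruSeq kit and sequenced as single reads of 50 nt, per the labels' protocols. The authors deposited raw counts of reads for each Ensembl gene. The submitters' processing notes name TopHat2, HTSeq, DESeq and mm10, with no role. Neither the annotation release nor the strand setting is given in the sources used here. Symbols, coordinates, exon lengths, overlaps and GC content came from GENCODE M21 (GRCm38, which mm10 also names), with 563 identifiers unmatched, and promoters from RefSeq on GRCm38.p6.

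The filter filterByExpr (at least 10 counts, and 15 in total) kept 18005 genes. After TMM scaling, groups were compared with group as the only factor by the quasi-likelihood test of edgeR 4.0.16 (2-sided, legacy mode, R 4.3.3) and Benjamini-Hochberg adjustment. SE and 95% intervals were derived from the F statistic. With 2 libraries per group the spread is shared across genes, and p-values measure the spread between these libraries. The letters were not used as a block, since no label says what they share. The procedure was also run on simulated data, drawn with the same dispersion of a gene in every library. The real 0 h replicates differed more (SD of the log2 difference 0.467, against 0.336 at 24 h). The simulation therefore does not cover that uneven spread.

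The members, lists and tests were chosen with earlier results of these data known. Counts at an unadjusted p under 0.05 are descriptions, since the share of all genes at that threshold was not computed. Named are all 10 members, every listed pathway gene past the test, the gene of highest mean CPM in each list, paralogs and defining cell type markers. Alternatives covered scaling, filters, DESeq2 1.42.0, limma 3.58.1 (voom), the block, removal of a spline trend on GC content and length, and each library left out. Figures were drawn with matplotlib 3.10.9.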

Additional observations from a re-analysis of the deposited data

How the results depend on the processing

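Of the 250 log2 fold changes recomputed for the 18 named genes, 226 kept their direction and their side of the threshold, 7 came to pass, 12 no longer passed and 5 changed sign. The members called higher (1) and lower (2) were 0 to 1 and 2 to 6 when 1 library was left out in turn, the 6 without 0 h replicate B. The sign changes were those of Rnf43 (-0.23 to 0.57 with 1 library left out, negative when that was 0 h replicate B or 24 h replicate A) and Znrf3 (-0.0033 with no filter, and -0.050 to 0.073 with 1 library left out). The genes called numbered 1225 (748 higher, 477 lower) in the main settings. They numbered 2589 (1230 higher, 1359 lower) with no filter, 1987 (950 lower) in DESeq2, 4397 (2053 higher, 2344 lower) with the GC and length trend removed, and 506 to 9416 (338 to 4352 higher, 168 to 5064 lower) with 1 library left out. The letters were checked for pairing, and the A minus B differences of the 24 h and 0 h groups correlated at 0.0616. Because 0 h replicate A carried a GC trend of its own, this value cannot settle whether a letter marks a shared clone or batch. With the letters as a replicate block 3253 genes were called (1658 higher, 1595 lower), and 5544 (2537 higher, 3007 lower) with the trend also removed. The other pathway genes called (5 higher, 4 lower) were 9 and 10 with no filter, 12 and 14 with the replicate block, 12 and 21 with the trend removed, 16 and 26 with both, 7 lower in DESeq2, and 2 to 19 higher and 2 to 41 lower with 1 library left out. The cause was not tested. Where 1 library is left out, the remaining one of its group is taken to vary as the other group does. Depth limits Lgr5, Rnf43 and Sp5, with at most 75 counts per library.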
